A study of Mus musculus with 34 samples.

Results

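Trimethylation of lysine 4 on histone H3 (H3K4me3), a mark found at the start of genes that are active or ready for transcription, was examined at 10 genes of the glycolytic enzymes: Hk1, Hk2, Gpi1, Pfkl, Aldoa, Gapdh, Pgam1, Eno1, Pkm and Ldha. The genes were taken by symbol from the 21938 protein-coding genes of GENCODE M21 on mouse build mm10, and the value of a gene was the mean H3K4me3 signal within 1000 bp on each side of its 5′ end. The mark was mapped by CUT&RUN, in which an antibody brings protein A fused to micrococcal nuclease to the chromatin of unfixed nuclei, and the fragments cut free are sequenced. Signal is the fragment coverage per base, scaled to 10000000 tags per library, so that 1 unit has the same meaning in every library as a share of its tags.

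The cells were villus cells scraped from the small intestine of mice with the C57BL/6J background, 2 of them wild type and 2 of them ApcMin/+, all aged 5 weeks in the labels, while the study's methods give a slightly higher age. ApcMin/+ mice carry a truncating mutation in 1 copy of the tumour suppressor Apc in every cell of the body and develop intestinal tumours, and the tissue was normal in appearance. The plots call the groups WT and APC. Each library was made from 1 mouse, so a difference between the groups rests on 2 mice against 2. For such a design an exact permutation test cannot give a p below 0.333.

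The libraries differed widely. The wild-type replicates had 1430000 and 4790000 tags and the ApcMin/+ replicates 3700000 and 5470000. A promoter was tested if its signal averaged 2 or more over the libraries, which 9931 did, and the median of these was 4.53 and 3.06 for wild type, 13.2 for ApcMin/+ replicate 1 and 4.18 for ApcMin/+ replicate 2. The share of all signal inside enriched regions was 22.6%, 11.9%, 43.3% and 16.4% in the same order, so ApcMin/+ replicate 1 stood apart from the other 3 libraries. Of 13 enterocyte genes, 12 had a promoter mean of at least 2, led by Vil1, the villus actin-bundling protein, at 14.2, while none of 7 secretory, 7 immune and 8 stromal and vessel genes did. Of 5 crypt genes 2 did, the proliferation gene Mki67 (8.11) and the Wnt target Axin2 (3.12), and the stem cell genes Lgr5 (1.22) and Olfm4 (0.249) did not. Among those, the immune genes Itgam and Lyz2 and 4 stromal genes (Col1a2, Col3a1, Pdgfra and Des) were under 1 in every library.

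Glycolysis converts glucose to pyruvate in the cytosol, and lactate dehydrogenase can reduce the pyruvate to lactate. The pathway opens with a phase that spends ATP at hexokinase and phosphofructokinase and runs through glucose-6-phosphate isomerase and aldolase, and it closes with steps that return ATP and NADH (from glyceraldehyde-3-phosphate dehydrogenase to pyruvate kinase). Most reactions can be run by more than 1 isoenzyme, each with its own gene and tissue pattern, and several of these genes have alternative promoters. In mature enterocytes the pathway meets gluconeogenesis and fructose metabolism, since these cells absorb dietary sugar.

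The position of a gene's start decided much of what was measured, so the promoters of Hk1 and Aldoa are shown at a marked and at an unmarked or weaker start of the same gene, and those of Hk2, Gapdh and Ldha at a marked start. RefSeq promoter sequences (GRCm38.p6, the mm10 assembly) were matched by symbol for 10 of 10 genes and gave 17 starts. Only bases before a start and outside annotated exons of the gene are printed, 5′ to 3′ on the strand of the gene. Capitals mark 4 motifs on either strand: ACGTG and GCGTG, the 2 forms of the core of the hypoxia response element, GGGCGG, the GC box bound by Sp1, and TATAAA, the TATA box. The E-box CACGTG, bound by proteins of the Myc and Mlx families, would appear inside capitals of ACGTG.

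The 2 RefSeq starts of Hk1, on the minus strand of chromosome 10, lie far apart. The first sequence, at chr10:62379921-62380158, precedes the start at the gene 5′ end, which carried little signal, and the second, at chr10:62340543-62340671, precedes the start where the mark was found.
Hk1, start at the gene 5′ end: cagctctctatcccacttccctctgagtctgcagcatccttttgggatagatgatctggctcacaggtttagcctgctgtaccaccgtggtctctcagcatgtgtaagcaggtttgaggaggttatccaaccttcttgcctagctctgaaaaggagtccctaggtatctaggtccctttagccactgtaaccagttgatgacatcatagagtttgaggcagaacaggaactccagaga
Hk1, start 39487 bp downstream: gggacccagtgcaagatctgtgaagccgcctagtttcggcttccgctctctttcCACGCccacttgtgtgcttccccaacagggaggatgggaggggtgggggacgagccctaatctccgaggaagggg

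The starts of Aldoa, on the minus strand of chromosome 7, lie closer together. The first sequence, at chr7:126800448-126800504, is the exon-free stretch before the weaker RefSeq start, and the second, at chr7:126799255-126799504, lies before a start within the marked region.
Aldoa, start 304 bp downstream of the gene 5′ end: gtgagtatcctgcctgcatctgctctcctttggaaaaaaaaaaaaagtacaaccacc
Aldoa, start 1497 bp downstream: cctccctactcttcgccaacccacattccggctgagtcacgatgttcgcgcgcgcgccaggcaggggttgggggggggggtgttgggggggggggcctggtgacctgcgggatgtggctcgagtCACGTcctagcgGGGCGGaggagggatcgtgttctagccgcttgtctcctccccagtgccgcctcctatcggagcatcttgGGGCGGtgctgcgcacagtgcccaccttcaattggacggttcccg

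The next sequences precede marked starts of Hk2 (minus strand, chr6:82774455-82774704), which, like Gpi1, has a single RefSeq start at the annotated 5′ end, Gapdh (minus strand, chr6:125165774-125166023), where the centred difference between the groups changed sign with the window, and Ldha (plus strand, chr7:46846832-46847081), where the mark was highest.
Hk2: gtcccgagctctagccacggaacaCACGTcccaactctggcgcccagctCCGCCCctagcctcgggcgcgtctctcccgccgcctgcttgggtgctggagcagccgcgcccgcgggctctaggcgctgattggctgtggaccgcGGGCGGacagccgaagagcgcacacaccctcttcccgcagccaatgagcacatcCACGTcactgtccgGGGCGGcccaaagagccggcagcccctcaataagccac
Gapdh, start 694 bp downstream: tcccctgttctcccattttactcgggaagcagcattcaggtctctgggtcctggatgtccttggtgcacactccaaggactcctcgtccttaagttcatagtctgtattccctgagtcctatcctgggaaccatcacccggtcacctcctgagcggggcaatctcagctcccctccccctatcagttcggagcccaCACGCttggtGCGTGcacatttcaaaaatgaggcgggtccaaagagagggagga
Ldha, start 5607 bp downstream: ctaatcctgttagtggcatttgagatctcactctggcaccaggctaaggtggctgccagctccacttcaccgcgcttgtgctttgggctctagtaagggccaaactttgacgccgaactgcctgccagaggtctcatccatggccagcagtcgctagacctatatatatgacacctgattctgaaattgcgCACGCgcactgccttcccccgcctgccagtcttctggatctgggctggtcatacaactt

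Base composition was read in the whole 300-base windows, which run from 250 bases before to 50 bases after a start. At Hk1 and Aldoa it differed between the start with the highest signal and the upstream start. The mean signal of the upstream start was 0.705 at Hk1 and 3.08 at Aldoa, so that of Aldoa was weaker and not unmarked. The observed over expected frequency of CpG was 0.0507 at the upstream start of Hk1 and 0 at the upstream RefSeq start of Aldoa, against 0.665 and 0.714 at their starts with the highest signal. Over the starts with the highest signal of the 10 genes it ran from 0.501 at Gapdh to 1.03 at Pkm, and the median of all 32817 RefSeq promoters was 0.383. Neither the upstream start of Hk1 nor that of Aldoa held any of the 5 motifs. GGGCGG was found in 10 of the 17 windows (58.8%), against 35.6% of all promoters, ACGTG in 8 (47.1%, against 19.6%) and GCGTG in 9 (52.9%, against 32.4%). CACGTG was found in 1 of them (5.88%, against 7.15% of all), that of the Ldha start 4329 bp downstream of the gene 5′ end, and TATAAA in 0 of them, against 13.6%. These shares describe letters in windows that partly overlap for Aldoa and Eno1, and base composition was not matched.

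At the gene 5′ ends, 7 of the 10 genes reached a mean signal of 2 over the 4 libraries, and Hk1, Aldoa and Ldha did not. Eno1, encoding the widespread form of enolase, had the highest signal, at 7.97 and 4.97 for the 2 wild-type replicates, against 26.0 and 5.18 for the 2 ApcMin/+ replicates. It took places 1489 and 1224 in wild type and 870 and 3000 in ApcMin/+ among the 21938 genes. Pgam1, the phosphoglycerate mutase of most tissues, followed at 8.02 and 3.20 against 18.2 and 4.81. Pkm, the pyruvate kinase gene whose transcripts are spliced into the M1 and M2 forms, had 7.19 and 3.66 against 17.1 and 5.10. These 3 genes lay above the median tested promoter in 4 of 4 libraries.

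The other tested genes had lower means, from 7.60 at Gpi1 to 4.90 at Pfkl, and lay on both sides of the library medians. Gpi1, glucose-6-phosphate isomerase, had 4.04 and 3.64 for wild type against 17.3 and 5.46 for ApcMin/+. Gapdh, glyceraldehyde-3-phosphate dehydrogenase, had 5.03 and 2.99 against 12.7 and 3.48. Hk2, the inducible hexokinase of muscle and many tumours, had 3.95 and 1.36 against 11.7 and 4.78. Pfkl, the liver-type subunit of phosphofructokinase, had 2.09 and 1.78 against 12.2 and 3.53, and was the only 1 of the 7 tested genes that stayed under the library median in 4 of 4 libraries.

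The remaining 3 genes averaged between 0.676 and 1.44 over the libraries, beside a genome-wide mean of 0.366. Ldha, the lactate dehydrogenase subunit that favours the making of lactate, had 0.349 and 0.337 for wild type against 1.27 and 0.747 for ApcMin/+. Hk1, the hexokinase of most tissues, had 0.0559 and 0.729 against 0.929 and 1.11, which corresponds to 0, 7, 7 and 12 fragments. Aldoa, the aldolase of muscle and most growing cells, had 0.740 and 0.462 against 3.42 and 1.13. A second gene record that carries the symbol Aldoa, with its 5′ end at position 126809108, was not used, and its mean signal was 1.33. Of the 25-base stretches within 1000 bp of the 5′ end, 91.4% at Hk1, 95.6% at Aldoa and 90.3% at Ldha occur once on the assembled chromosomes. Over the 10 genes this share ran from 81.9% to 99.6%, with 81.9% at Pgam1 and 90.0% at Eno1, which had high signal.

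**Figure D1:**
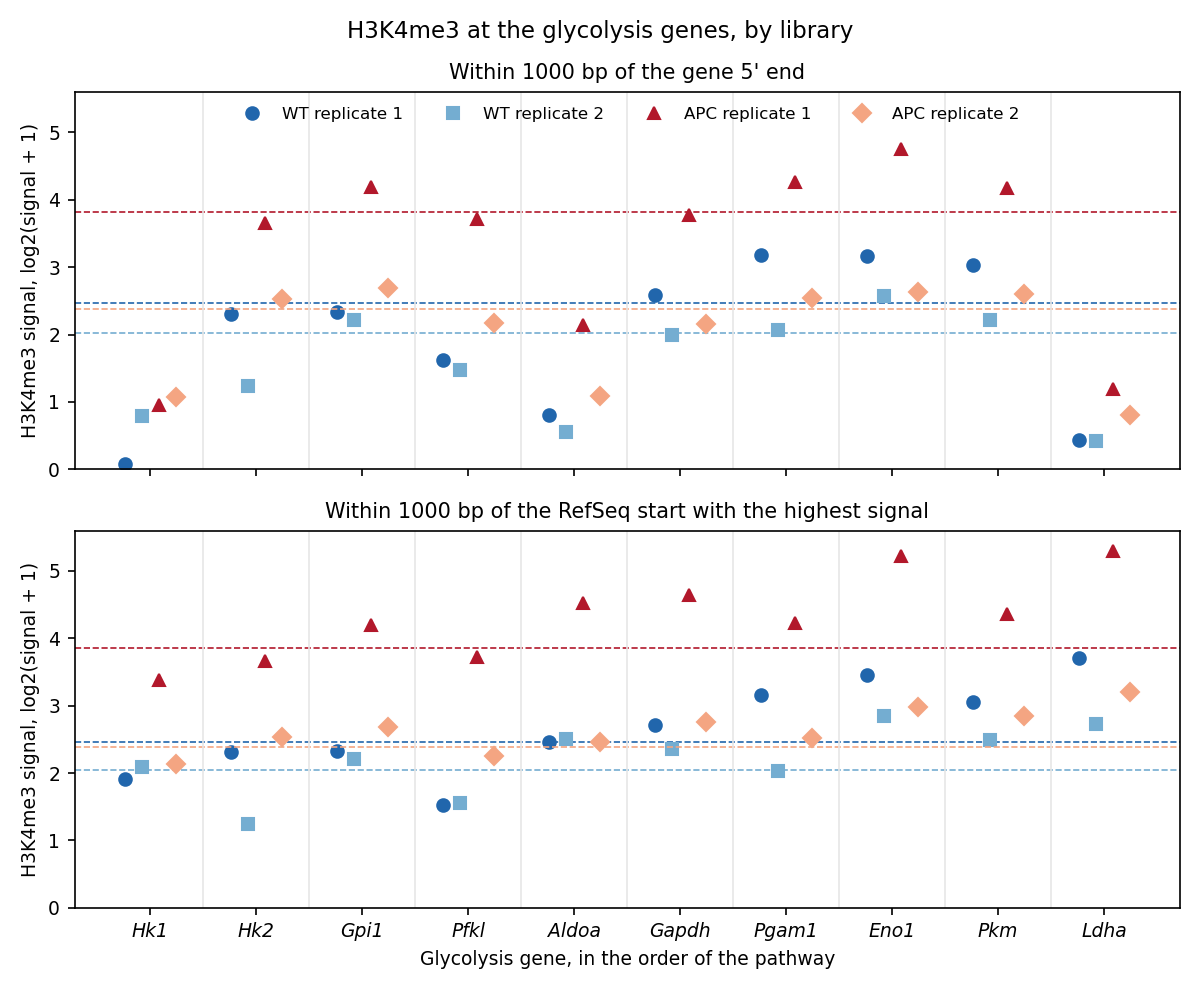
H3K4me3 signal of the 10 glycolysis genes in each of the 4 libraries, as log2(signal + 1), at the gene 5′ end (top) and at the RefSeq start with the highest signal (bottom). Each point is 1 library and each dashed line is the median of all tested promoters in the library of that colour, and Hk1, Aldoa and Ldha lie far under these lines at the gene 5′ end but not at the RefSeq start.

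The signal at these 3 genes lay at another start of the same gene. GENCODE lists 6 start sites for Ldha when starts within 200 bp are joined. The 5′ end of the gene record is the start of 1 transcript, while 8 transcripts start 4364 bp downstream, where the signal was 11.6 and 4.83 for wild type against 30.2 and 7.25 for ApcMin/+. For Hk1, with 9 start sites, the site 39366 bp downstream had 2.55 and 3.24 against 9.04 and 3.41, and the other 8 sites had a mean of at most 0.913. For Aldoa, with 6 start sites, the mean rose from 1.44 at the gene 5′ end to 8.82 at the site 1497 bp downstream, where 5 transcripts start, and 10.2 at the site 2444 bp downstream.

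**Figure D2:**
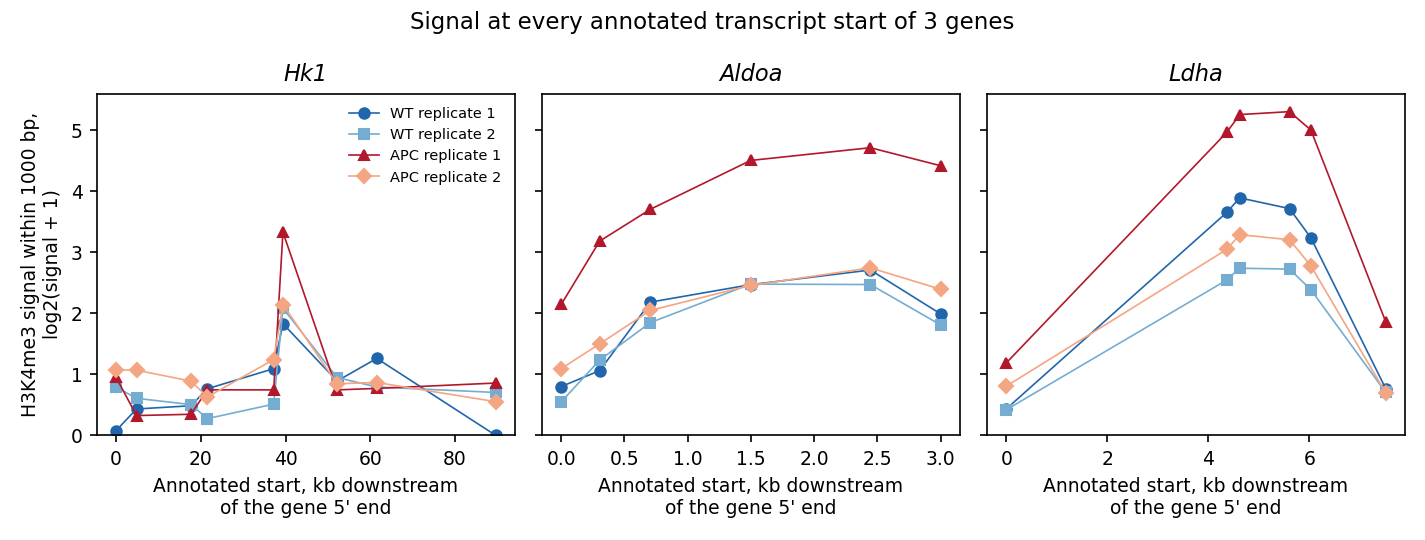
H3K4me3 signal, as log2(signal + 1), within 1000 bp of every annotated transcript start of Hk1, Aldoa and Ldha, against the distance of the start from the gene 5′ end in kb. Each line is 1 library, and in all 4 the signal of Hk1 is high at a single start 39366 bp downstream while that of Ldha is high at 4 neighbouring starts from 4364 to 6030 bp downstream.

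Each gene was therefore also measured at its RefSeq start with the highest mean signal over the 4 libraries, a choice made after the data had been seen, and all 10 genes then reached a mean of 2. Since the start was picked by its signal, the level there is a description, and the other genes were picked in the same way. The start lay more than 1000 bp from the gene 5′ end in 3 of the 10 genes (30.0%), against 8.03% of the 10340 genes with a signal of at least 2 at such a start. It lay within 1000 bp in the other 7, at 0 bp for Hk2 and Gpi1, 52 bp upstream for Pgam1 and 276, 503, 694 and 859 bp downstream for Pfkl, Eno1, Gapdh and Pkm.

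At this start Ldha had the highest signal, at 12.1 and 5.61 for wild type against 38.5 and 8.22 for ApcMin/+, which corresponds to 35, 54, 285 and 90 fragments. It took places 245, 733, 92 and 398 among the 21938 genes in those libraries. Eno1 followed at 10.0 and 6.22 against 36.5 and 6.89. Aldoa had 4.53 and 4.66 against 22.0 and 4.52, so the lower ApcMin/+ library did not exceed either wild-type library. Gapdh had 5.57 and 4.13 against 24.1 and 5.79, Pkm 7.33 and 4.62 against 19.6 and 6.19, and Pgam1 7.96 and 3.09 against 17.6 and 4.74. Hk1 had 2.78 and 3.28 against 9.43 and 3.38, and the 5′ end of the antisense gene Hk1os lies in the same window, so the mark of the 2 genes cannot be told apart there. No window of the other 9 genes held the 5′ end of another annotated gene.

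Relative to the median tested promoter of the same library, on the log2(signal + 1) scale, Ldha stood at 1.05 ± 0.36 (SD, n = 4 libraries) and Eno1 at 0.94 ± 0.33. Pkm stood at 0.50 ± 0.064, the smallest spread of the 10, Gapdh at 0.43 ± 0.24, Aldoa at 0.30 ± 0.31, Pgam1 at 0.29 ± 0.31 and Gpi1 at 0.17 ± 0.21. Below the median on average were Hk2 at -0.26 ± 0.40, Hk1 at -0.31 ± 0.27 and Pfkl at -0.43 ± 0.38. Ldha, Eno1, Gapdh and Pkm were above the median in 4 of 4 libraries and Pfkl in 0 of 4.

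In the order of mean signal, Ldha (16.1), Eno1 (14.9), Gapdh (9.89), Pkm (9.43), Aldoa (8.93), Pgam1 (8.36), Gpi1 (7.60), Hk2 (5.44), Pfkl (4.93) and Hk1 (4.72), most neighbours did not differ beyond the spread over libraries. Eno1 exceeded Gapdh in 4 of 4 libraries, by 0.51 ± 0.22 on the log2(signal + 1) scale (SD, n = 4 libraries), and this was the only 1 of the 9 steps in which the sign was the same in every library and the mean larger than the SD. Ldha exceeded Eno1 in 3 of 4 libraries, by 0.11 ± 0.17.

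**Figure D3:**
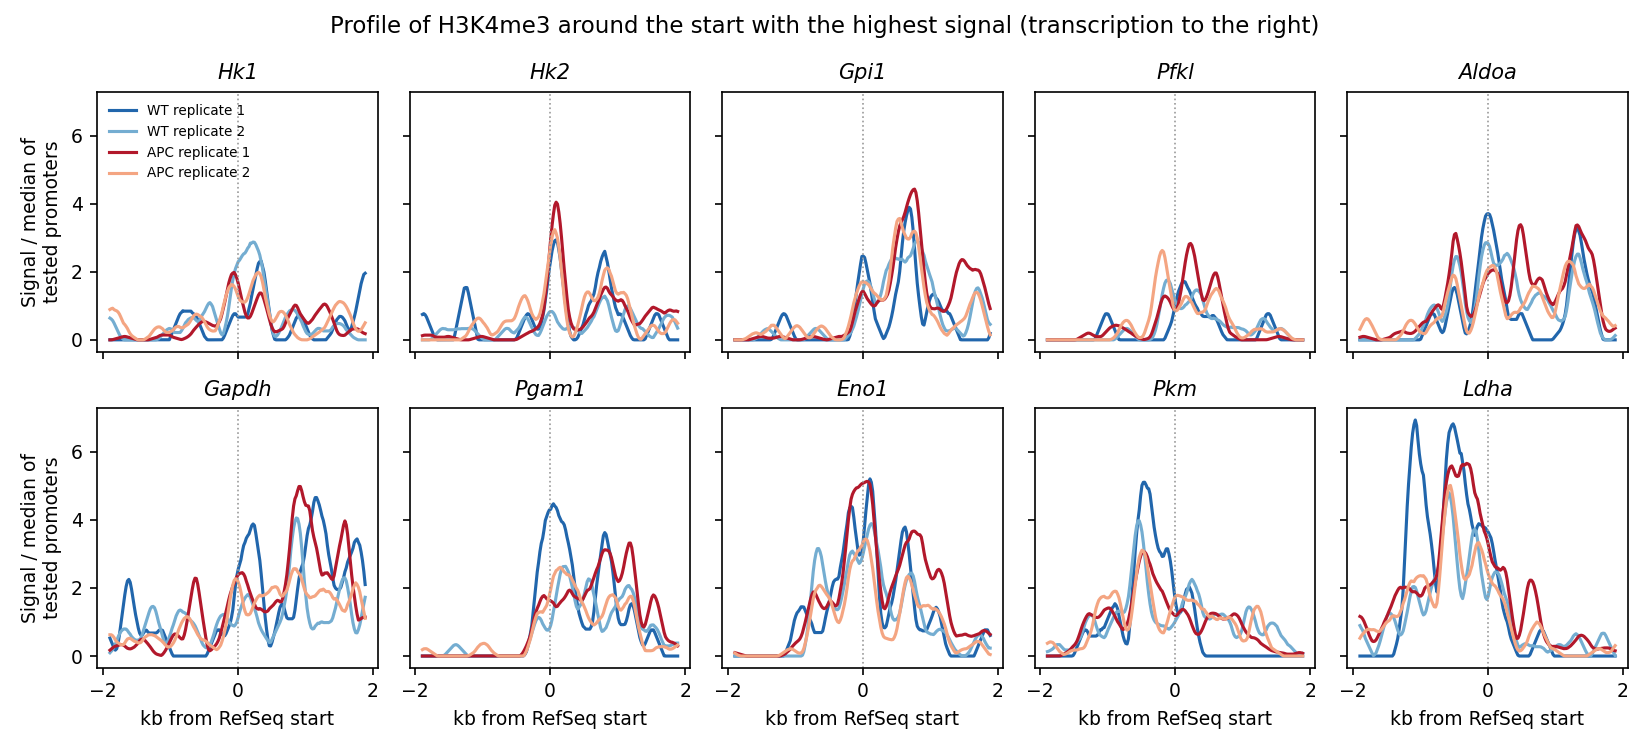
H3K4me3 along each of the 10 genes from 2 kb upstream to 2 kb downstream of the RefSeq start with the highest signal, averaged over 200 bp and divided by the median signal of tested promoters in the same library. Each line is 1 library and transcription runs to the right, and the highest stretch lies before the start at Pkm and Ldha, around it at Eno1 and after it at Gpi1 and Gapdh.

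The mark was laid out differently along the genes. In bins of 20 bp, the summit at Gpi1 lay between 520 and 740 bp downstream of the start in the 4 libraries and that of Gapdh between 840 and 1200 bp downstream. The summit at Pkm lay between 540 and 460 bp upstream of the chosen start in 4 of 4 libraries, between it and another RefSeq start of the gene, and at Eno1 it lay between 40 and 100 bp downstream in 4 of 4. At Ldha the summit lay upstream, between 1140 and 340 bp from the start. At Hk2 it lay 60 or 80 bp downstream except in wild-type replicate 2, at 760 bp. At Aldoa, Pgam1, Pfkl and Hk1 its position varied between libraries, and at Pfkl wild-type replicate 1 had only 5 fragments in the whole window. An enriched region, defined as a stretch with at least 5 times the genome-wide mean over the 4 libraries, covered the start of all 10 genes. Its length was 5100 bp at Gpi1, 4400 bp at Aldoa, 4300 bp at Gapdh, 3500 bp at Ldha and 3200 bp at Eno1, against a median of 2100 bp for the regions of tested promoters, and 1800 bp at Pfkl. The region of Aldoa also covered the 5′ end of Fam57b, a protein-coding gene.

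The isoenzymes of each reaction were compared at the same kind of start. For lactate dehydrogenase, Ldha had the mark and Ldhb and Ldhc had almost none, with mean signals of 0.427 and 0.456. Gapdh stood at 9.89 against 0.394 for its testis form Gapdhs. Eno1 stood at 14.9 against 4.47, 2.17 and 1.10 for Eno4, Eno3 and Eno2, and Pgk1, the phosphoglycerate kinase of body cells, at 4.21 against 0.262 for the testis form Pgk2. In these 4 reactions the same gene was the highest in 4 of 4 libraries.

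In other reactions 2 or more isoenzyme genes carried the mark at similar levels. Pklr, the pyruvate kinase of liver and red cells, stood at 10.1 and Pkm at 9.43, and each was the higher in 2 of 4 libraries, with a mean log2 ratio of Pklr over Pkm of -0.019 ± 0.24 (SD, n = 4 libraries). For phosphofructokinase, Pfkp (9.30) and Pfkm (6.80) had higher means than Pfkl (4.93). For the hexokinase step, Hkdc1 (6.71), Hk2 (5.44), the ADP-using enzyme gene Adpgk (4.98) and Hk1 (4.72) lay close together, the highest gene differed between libraries, and Hk3 (0.901) was low. Bpgm, which makes and breaks 2,3-bisphosphoglycerate, stood at 9.67 beside Pgam1 at 8.36, and the muscle form Pgam2 at 0.759.

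**Figure D4:**
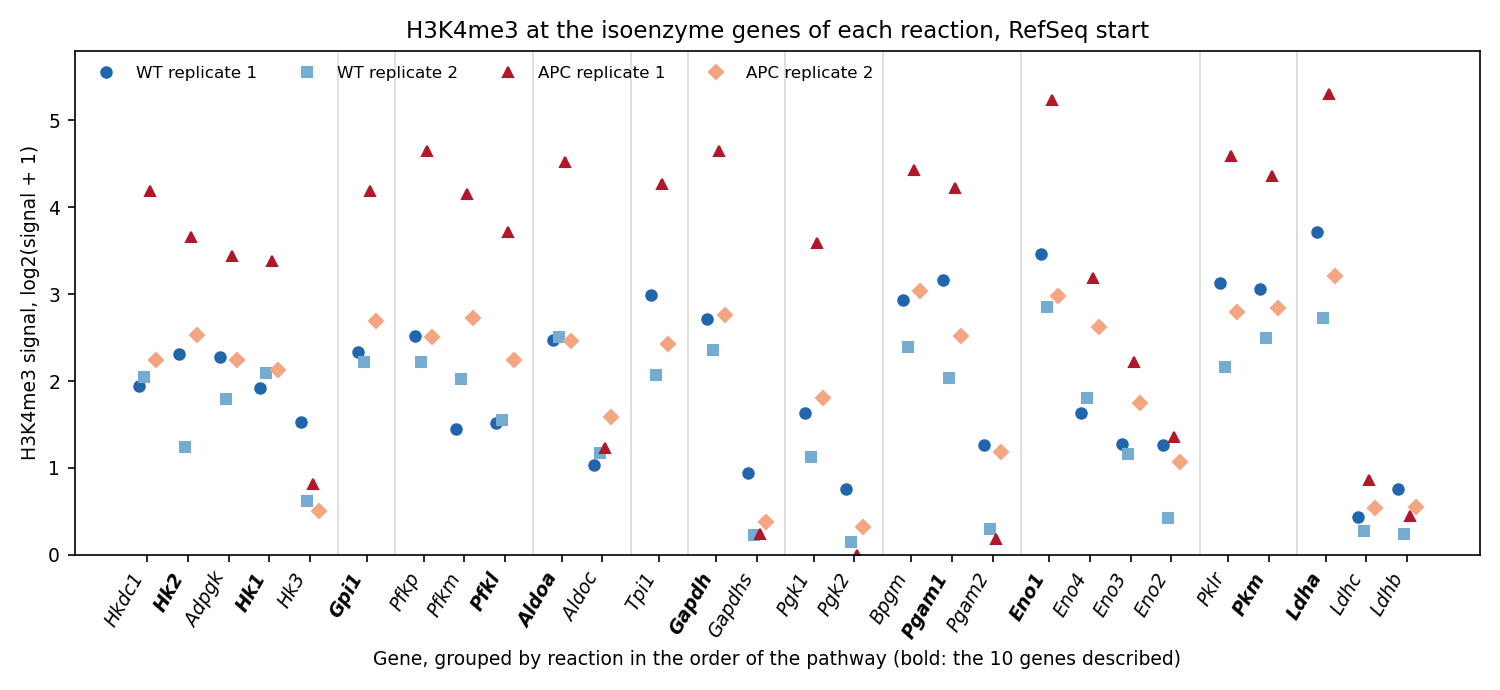
H3K4me3 signal, as log2(signal + 1), at the RefSeq start with the highest signal of 28 genes, grouped by the reaction their enzymes catalyse and ordered by mean within it, with the 10 glycolysis genes in bold. Each point is 1 library, and Ldhb, Ldhc, Gapdhs and Pgk2 lie near 0 while both Pklr and Pkm lie high.

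The comparison of ApcMin/+ with wild type asks whether the mark at the promoters changed in tissue that carries the mutation but no visible tumour. At the gene 5′ ends, the difference on the log2(signal + 1) scale was 1.40 ± 0.84 (SE, 2 libraries against 2) at Pfkl, 1.32 ± 0.92 at Hk2 and 1.17 ± 1.10 at Gpi1. It was 0.82 ± 1.23 at Eno1, 0.78 ± 1.16 at Pgam1, 0.77 ± 1.16 at Pkm and 0.68 ± 1.00 at Gapdh. By limma, with Benjamini-Hochberg adjustment over the 9931 promoters tested, 0 of the 7 genes tested passed the threshold of 0.05, with an adjusted p of 0.683 for each, and 0 of 9931 promoters passed (0%), while 131 had an unadjusted p under 0.05, none of them among the 7 genes.

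The median difference of the 7 genes was 0.82 and that of all tested promoters 0.85, and 99.2% of the tested promoters had a higher mean in the ApcMin/+ libraries. The filter used the mean over all 4 libraries, to which ApcMin/+ replicate 1 contributed most. With no filter, over 21318 promoters, 72.7% were higher, the median was 0.38 and the groups did not overlap at 26.7%, beside a median of 0.80 and 6 of 10 for the glycolysis genes. Both ApcMin/+ libraries exceeded both wild-type libraries at Hk2, Gpi1 and Pfkl, which is 3 of 7 genes, against 38.5% of all tested promoters. Pfkl averaged 1.94 in wild type and 7.85 in ApcMin/+, so it passed the filter of 2 only through the ApcMin/+ libraries. At Gapdh, Pgam1, Eno1 and Pkm, wild-type replicate 1 exceeded ApcMin/+ replicate 2. Without ApcMin/+ replicate 1 the median of the 7 genes was -0.018 and that of all promoters 0.13, and the 4 last-named genes turned to between -0.24 and -0.018. Without ApcMin/+ replicate 2, with the lone ApcMin/+ library assumed to vary like the wild-type pair, 6477 of 9931 promoters and 5 of the 7 genes passed the threshold (Hk2, Gpi1, Pfkl, Gapdh and Pgam1). The share of signal in enriched regions, 43.3% in ApcMin/+ replicate 1 and 16.4% in ApcMin/+ replicate 2, moved with these differences, and its part in them was not tested. A villus scrape is a mixture of cells, so that fewer cells with the mark and less of the mark per cell cannot be told apart.

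When every library was centred on its median tested promoter, the differences at the gene 5′ ends ran from -0.18 ± 0.30 at Gapdh to 0.54 ± 0.35 at Pfkl, with 0.47 ± 0.32 at Hk2 and 0.31 ± 0.28 at Gpi1 (SE, 2 libraries against 2). The median was -0.035 for the 7 genes and -0.0077 for all promoters. By limma 0 of the 7 genes and 12 of 9931 promoters passed the threshold, and the adjusted p of the 7 genes was 1.00. Both ApcMin/+ libraries lay above both wild-type libraries at Gpi1 and Pfkl, against 13.1% of all promoters, and below them at Gapdh, against 14.3%.

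At the RefSeq starts, all 10 genes could be compared. As deposited, the differences ran from 0.75 ± 0.89 at Hk1 to 1.44 ± 0.84 at Pfkl (SE, 2 libraries against 2), with 1.03 ± 1.27 at Ldha, 1.01 ± 1.15 at Aldoa and 1.17 ± 1.20 at Gapdh, and no gene passed the threshold by limma (adjusted p of 0.682 for each, 10340 promoters tested). The median was 1.02 for the 10 genes and 0.85 for all promoters. Both ApcMin/+ libraries lay above both wild-type libraries at 5 genes (Hk1, Hk2, Gpi1, Pfkl and Gapdh), against 38.2% of all promoters. Without ApcMin/+ replicate 1 the median of the 10 genes was 0.098, beside 0.13 for all promoters, and Aldoa and Ldha stood at -0.019 and -0.015. After centring the differences ran from -0.12 ± 0.33 at Hk1 to 0.57 ± 0.35 at Pfkl, with a median of 0.15 against -0.020 for all promoters, and again no gene passed (adjusted p of 1.00 for each).

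After centring, both ApcMin/+ libraries lay above both wild-type libraries at Gpi1, Pfkl and Gapdh, 3 of 10 genes, against 12.6% of all promoters, and below them at 0 of 10, against 14.7%. Pfkl rested on few fragments in the wild type, with 5 in replicate 1 and 19 in replicate 2, against 90 and 41 in the ApcMin/+ replicates. Its mean there was 1.91 in wild type and 7.96 in ApcMin/+, so it passed the filter of 2 only through the ApcMin/+ libraries. Gapdh moved from -0.18 at the gene 5′ end to 0.30 at the start 694 bp downstream, so its direction after centring depended on the window. Ldha and Aldoa differed by 0.16 ± 0.35 and 0.14 ± 0.28, within their standard errors.

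**Figure D5:**
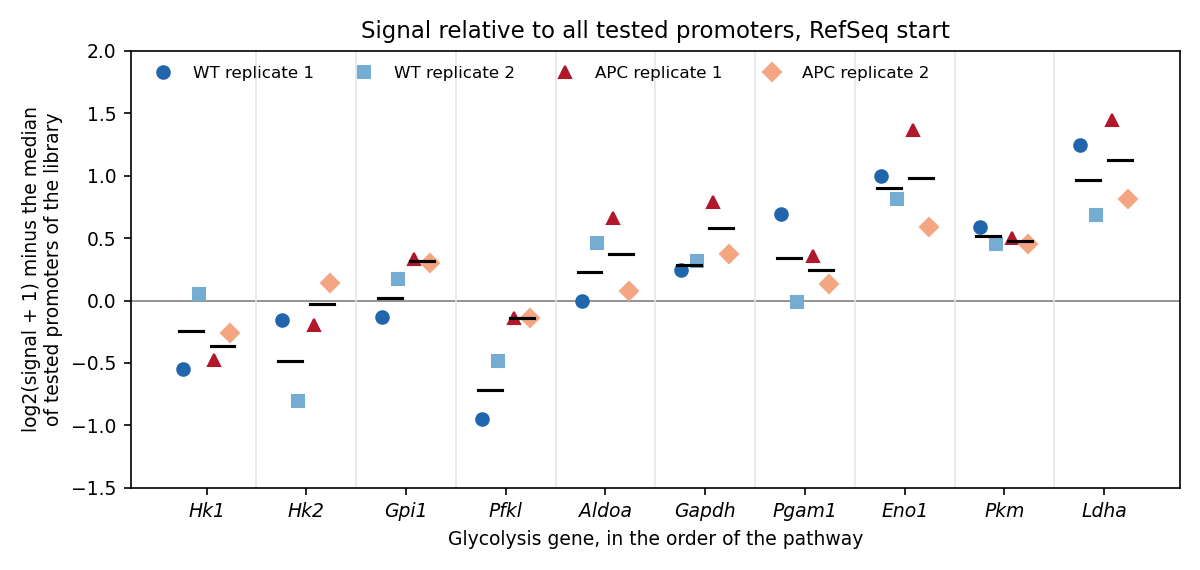
Signal of the 10 glycolysis genes at the RefSeq start, as log2(signal + 1) minus the median of tested promoters in the same library. Each point is 1 library and each black bar the mean of the 2 libraries of a group, with wild type on the left and ApcMin/+ on the right of each gene, and the groups are separate at Gpi1, Pfkl and Gapdh but overlap at the other 7 genes.

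The other genes around the pathway were read at their gene 5′ ends. Of 20 further glycolytic isoenzymes and steps, 11 were tested and 0 passed the threshold in either direction, as deposited or after centring. Their median difference was 1.10 as deposited, beside 0.85 for all promoters, with the largest at Pfkm (1.71 ± 0.98) and Pgk1 (1.32 ± 0.76). Pgk1 had 2.09 and 1.19 for wild type against 11.1 and 2.49 for ApcMin/+, so it passed the filter of 2 only through the ApcMin/+ libraries. The same held for Eno3, with 1.47 and 1.19 for wild type and a mean of 2.15 over the 4 libraries. Both ApcMin/+ libraries exceeded both wild-type libraries at 6 of the 11, Pgk1 and Eno3 among them, against 38.5% of all promoters. After centring they did so at 3 of the 11, Pgk1 among them, against 13.1%, and lay below them at 0 of the 11, against 14.3%. All 9 genes of gluconeogenesis and fructose metabolism were tested and 0 passed. The highest of them by mean signal were Tkfc (12.3) and Khk (10.5), which pass fructose into the pathway, and the lowest Pck2 (2.98) and Fbp1 (2.50). After centring, Tkfc (0.55 ± 0.29) and G6pc (-0.63 ± 0.30), the glucose-6-phosphatase of liver, kidney and intestine, marked the ends of their range. Both ApcMin/+ libraries then lay above both wild-type libraries at 2 of the 9, Tkfc among them, and below them at 1 of the 9, against 13.1% and 14.3%. At the gene 5′ end Tkfc had 6.63 and 4.13 for wild type against 30.9 and 7.62 for ApcMin/+. At its RefSeq start with the highest signal it had 11.3 and 4.89 against 29.2 and 7.20, so wild-type replicate 1 exceeded ApcMin/+ replicate 2 there.

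Of 7 transporters 5 were tested and 0 passed, with the highest signal at Slc16a1 (11.7), a carrier of lactate, and Slc5a1 (10.3), the sodium-coupled glucose transporter of the brush border, and the lowest at the fructose carrier Slc2a5 (1.05) and the neuronal glucose carrier Slc2a3 (0.771). Of 9 regulators 7 were tested and 0 passed. Pfkfb2 and Hif1a had 0.690 and 0.220 at the gene 5′ end but 15.5 and 8.44 at the RefSeq start with the highest signal, a displacement like that at Hk1, Aldoa and Ldha. Among the regulators the largest difference was at Myc, a target of Wnt signalling that activates many glycolytic genes, with 1.04 ± 0.30 after centring (limma adjusted p = 0.218). Myc rested on few fragments in wild-type replicate 1, with 4, against 30 in replicate 2 and 148 and 63 in the ApcMin/+ replicates. The lowest difference was at Pfkfb3, with -0.93 ± 0.38 after centring, where both ApcMin/+ libraries lay below both wild-type libraries. It was read at the gene 5′ end, with 4.88 and 2.45 for wild type against 3.46 and 3.10 for ApcMin/+. At its RefSeq start with the highest signal Pfkfb3 had 4.08 and 3.43 against 8.76 and 3.82, so its values depended on the start. Of 9 genes of pyruvate use, all were tested, led by Mpc2 (14.5), a subunit of the mitochondrial pyruvate carrier, and Dlat (12.1), a subunit of pyruvate dehydrogenase. As deposited 0 of them passed, and after centring 1 did, in the lower direction. This was Pdk4, the kinase that switches pyruvate dehydrogenase off, with 8.48 and 3.69 for wild type against 3.52 and 3.26 for ApcMin/+. The centred difference was -1.46 ± 0.32 (limma adjusted p = 0.00878), and as deposited it was -0.60 ± 0.92 (adjusted p = 0.683). The call was lost with quantile normalization (-1.28, limma adjusted p = 0.180) and when centred without ApcMin/+ replicate 1 (-0.77). After centring, both ApcMin/+ libraries lay above both wild-type libraries at 0 of 5 transporters, 2 of 7 regulators and 1 of 9 pyruvate genes, against 13.1% of all promoters. They lay below them at 3 of 5, 3 of 7 and 2 of 9, against 14.3%. These counts hold for the gene 5′ ends. At the RefSeq start Slc16a3, among the 3 transporters, had 15.7 in ApcMin/+ replicate 1, above that library's median of 13.5. In wild-type replicate 2 it had 2.93, under the median of 3.11, so its groups overlapped there.

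The 3 genes outside these lists whose signal at the gene 5′ end was nearest to the median of the 10 glycolysis genes over the 4 libraries were Creg1, Zfp330 and Mpp1, at Euclidean distances of 0.079, 0.083 and 0.11 on the log2(signal + 1) scale. Because they were chosen by this distance, their values had to follow that median from library to library. Creg1, for example, had 3.84 and 2.29 for wild type against 13.0 and 4.21 for ApcMin/+.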

How the data were processed

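H3K4me3 was profiled by CUT&RUN in villus cells from 2 wild-type and 2 ApcMin/+ mice, grouped by the genotype in the labels. Other antibodies, RNA-seq and older mice were not analysed here. The authors trimmed read pairs, aligned them to mm10 (Bowtie2), discarded duplicates (Picard) and alignments of MAPQ below 10 (samtools), and selected fragment lengths between 150 and 500 bp. The deposited values are signal, the coverage per base written by HOMER and scaled by the authors to 10000000 tags, with replicates kept apart and no control subtracted. Since the tracks hold no counts, fragments were estimated by dividing summed signal by its sum per tag, and no intervals were drawn from them.

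The mean signal within 1000 bp of the 5′ end of 21938 GENCODE M21 genes was computed with Python 3.11.15, numpy 2.4.6 and pandas 2.3.3. Promoters averaging 2 or more were fitted on log2(signal + 1) by limma 3.58.1 (trended prior, R 4.3.3) without covariates, and p-values were adjusted by Benjamini-Hochberg, with 0.05 as the threshold. This scale understates the change of low genes. The code was tested on simulated data. Enriched regions were stretches of 100-bp bins reaching 5 times the genome-wide mean in the average track, merged across gaps up to 500 bp and kept from 300 bp. RefSeq starts were matched by symbol and chromosome for 16492 genes, and the gene 5′ end served for the others. Figures were drawn with matplotlib 3.10.9.

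The 10 genes and all lists were chosen with earlier results of these data known. All 10 are named. In the other lists the 2 highest and 2 lowest genes by mean signal, and those with the largest or smallest difference, could be named, and likeness was the smallest Euclidean distance over the 4 libraries to the median of the 10 genes. The marker genes and the isoenzymes at RefSeq starts named outside this rule were picked after their values were seen. Some genes of the lists are not reported here by name or in the comparison of isoenzymes.

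The alternatives concerned the scaling between libraries, the pseudocount (0.1 and 5), the filter, the window (500 and 2000 bp), the start site, a replicate block, and the omission of single libraries.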

Additional observations from a re-analysis of the deposited data

How the results depend on the processing

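No glycolysis gene passed the limma threshold under any alternative except the omission of ApcMin/+ replicate 2, and the number past it ran from 0 to 5 over the fits that left out 1 library each. The number of all promoters past it was 0 as reported, 12 when centred on the median tested promoter, 2 with quantile normalization, 11 at the RefSeq start after centring, and 0 to 6477 when 1 library was left out. With the replicate block it was 1, none of it a glycolysis gene, and the lowest adjusted p of the 7 genes was 0.533. The deviations of libraries with the same number correlated at 0.20 over 2 pairs, and the labels tie the numbers to no litter or day, so the samples share only a number. The block changed the call of no glycolysis gene.

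The direction at single genes depended on the scaling and on ApcMin/+ replicate 1. The number of genes higher in ApcMin/+ was 7 of 7 as reported, 3 when centred, 3 with quantile normalization, 3 when centred without ApcMin/+ replicate 1, and 3 to 7 when 1 library was left out. The log2 differences that turned over when centred were -0.18 at Gapdh, -0.076 at Pgam1, -0.035 at Eno1 and -0.086 at Pkm. With quantile normalization they were -0.19, -0.059, -0.10 and -0.080 in the same order, and when centred without ApcMin/+ replicate 1 they were -0.26, -0.21, -0.37 and -0.14. As deposited without a library they ran from -0.13 to 1.49 at Gapdh, from -0.084 to 1.64 at Pgam1, from -0.24 to 1.88 at Eno1 and from -0.018 to 1.55 at Pkm, lowest without ApcMin/+ replicate 1 and highest without ApcMin/+ replicate 2. At the RefSeq start Hk1 (-0.12), Pgam1 (-0.097) and Pkm (-0.041) turned over after centring, and Aldoa (-0.019), Pgam1 (-0.076), Eno1 (-0.18) and Ldha (-0.015) without ApcMin/+ replicate 1. Hk2, Gpi1 and Pfkl were higher in ApcMin/+ under every alternative in which they were tested. At the gene 5′ end Pfkl passed the filter of 2 only through the ApcMin/+ libraries, with a wild-type mean of 1.94. The cause was not tested.

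The median difference of the 7 genes was 0.82 as reported, -0.059 with quantile normalization, -0.14 when centred without ApcMin/+ replicate 1, and -0.018 to 1.88 when 1 library was left out. The number of genes at which every ApcMin/+ library lay above every wild-type library was 3 of 7 as reported (38.5% of all promoters). It was 6 of 10 with no filter on low signal (26.7%), 2 of 6 with a stricter filter of 5 (31.96%), 5 of 10 at the transcript 5′ end with the highest signal (38.0%), 5 of 10 at the RefSeq start (38.2%) and 5 of 10 there without ApcMin/+ replicate 1 (38.4%). When 1 library was left out it was 3 to 7 of 7, against 38.6% of all promoters without ApcMin/+ replicate 1, 98.9% without ApcMin/+ replicate 2, and 87.5% and 41.7% without replicates 1 and 2 of the wild type. The pseudocount and the window turned no direction and left the number at 3. Genes with ApcMin/+ below wild type are not in this number. At the RefSeq start without ApcMin/+ replicate 1 there was 1 such gene of 10, Aldoa, against 8.87% of all promoters. At the gene 5′ end that share was 9.12% without ApcMin/+ replicate 1 and 7.40% with no filter, with 0 of the glycolysis genes. The RefSeq start and the centred fits without ApcMin/+ replicate 1 were added after seeing the data. Wild-type replicate 1 was the shallowest library, with 13.0 fragments at its median tested promoter.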
